A study of Homo sapiens with 24 samples.

Results

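The genes described here encode 9 enzymes of serine synthesis and of the folate one-carbon cycle. They are PHGDH, PSAT1 and PSPH of the serine pathway, the mitochondrial enzymes SHMT2, MTHFD2, MTHFD1L and ALDH1L2, and the cytosolic enzymes SHMT1 and MTHFD1. They were chosen by name, as the rows of the count table whose Ensembl identifiers carry these symbols, which gave 9 of 60675 rows.

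RNA sequencing of ribosomal RNA-depleted total RNA was performed on MIA PaCa-2 cells, an established line of human pancreatic cancer cells. One derivative, named C/EBPδ-inducible, carried CEBPD cDNA in a Tet-On vector that responds to doxycycline, together with mVenus, and the other, named CTRL, carried that vector without the cDNA, together with mCherry. Both lines were examined untreated (0 h) and after 8, 24 and 48 h of doxycycline at 2 µg/mL, with 3 libraries in each of the 8 groups, and the question was what induction of C/EBPδ changes beyond doxycycline itself. The sample labels list the dose at 0 h as well, whereas the study describes those cells as untreated. The inducible line is a pool of a few clones, so that clone, fluorescent marker, insertion and leakage of the construct cannot be told apart in a difference between the lines. Within a line, doxycycline and time in culture changed together and cannot be told apart. The replicates are wells seeded side by side, and the p-values therefore measure the spread between wells, which may be technical. In bulk RNA, fewer cells of a type and less RNA per cell cannot be told apart either.

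The libraries held between 12731237 and 22598595 counts (median 18959363.5), and the lowest total was that of the C/EBPδ-inducible cells at 8 h, replicate 3. The targeted gene followed the labels, with a mean of 3.95, 1.90, 3.55 and 4.02 CPM (counts relative to the TMM-scaled total of a library) for CEBPD in CTRL cells and 21.6, 249, 307 and 204 CPM in C/EBPδ-inducible cells at 0, 8, 24 and 48 h, without separating the construct from the endogenous gene. Markers of a carcinoma line were mixed. VIM was abundant in both lines, with group means between 5393 and 6941 CPM, EPCAM did not exceed a group mean of 1.37 CPM, and KRT8 had a mean of 1561 CPM in untreated CTRL cells against 74.4 CPM in untreated C/EBPδ-inducible cells. The summed level of 11 markers of other cell types lay between 1.73 and 21.2 CPM per library. The highest sum was in a CTRL library at 48 h and came mostly from LYZ (18.3 CPM), and CD3E, PRSS1 and INS were at 0 in all 24 libraries.

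Serine is made from a glycolytic intermediate in a short pathway. PHGDH oxidizes 3-phosphoglycerate, PSAT1 transfers an amino group from glutamate, and PSPH removes the phosphate. The SHMT enzymes then split serine into glycine and a one-carbon unit bound to tetrahydrofolate, and the MTHFD enzymes oxidize and release that unit, in the mitochondrion as formate, which feeds purine and thymidylate synthesis in the cytosol. Proliferating tumor cells are known to use the mitochondrial arm heavily, and the transcription factor ATF4, which is translated when amino acids are short, is known to bind and induce several of these genes. The C/EBP proteins, to which C/EBPδ belongs, bind related letters and can pair with ATF4.

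Because most of these genes moved in the same direction, the sequence before their start sites is shown first. RefSeq windows of 250 bases upstream (GRCh38.p14) were at hand for 6 of the 9 genes, namely PHGDH, PSAT1, SHMT1, MTHFD1, MTHFD1L and MTHFD2. PSPH, SHMT2 and ALDH1L2 had no window. The following motifs were searched on both strands by letters alone: TGATGNAA (letters of the composite element of C/EBP and ATF factors), TTGCNNAA (letters of a C/EBP site) and CCAAT (the box bound by NF-Y). The PSAT1 window (chr9:78296875-78297124, plus strand) and the MTHFD2 window (chr2:74198365-74198614, plus strand) are printed 5′ to 3′ with each CCAAT in capitals. The PSAT1 window lies before the annotated gene, and the last few bases of the MTHFD2 window fall in the first exon of other MTHFD2 transcripts, with an exon of a long noncoding RNA on the opposite strand over much of the window.
PSAT1: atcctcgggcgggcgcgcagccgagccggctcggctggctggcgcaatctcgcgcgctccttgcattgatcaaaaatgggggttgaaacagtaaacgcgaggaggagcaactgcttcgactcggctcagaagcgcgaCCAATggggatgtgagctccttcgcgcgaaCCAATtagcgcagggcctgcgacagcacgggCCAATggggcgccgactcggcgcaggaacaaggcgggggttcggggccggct
MTHFD2: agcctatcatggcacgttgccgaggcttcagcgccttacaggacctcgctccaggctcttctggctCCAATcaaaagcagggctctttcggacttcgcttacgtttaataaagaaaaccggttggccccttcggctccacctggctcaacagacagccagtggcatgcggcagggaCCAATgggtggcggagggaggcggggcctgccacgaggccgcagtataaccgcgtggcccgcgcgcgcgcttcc

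The PSAT1 window held 3 copies of CCAAT and the MTHFD2 window 2 copies, and neither held TGATGNAA or TTGCNNAA. SHMT1 held 2 copies of CCAAT, and PHGDH, MTHFD1 and MTHFD1L held 1 copy, in MTHFD1L in all but one of its windows. All 6 genes with a window thus held the box, beside 37.0% of all 27305 genes, and this included MTHFD1 and SHMT1, which did not rise below. CCAAT was found in 32.0% of all 35116 windows of this length, TTGCNNAA in 9.05% and TGATGNAA in 3.14%. A short stretch around a match is shown for each of the genes in which the rarer letters occurred, and for the first CCAAT of SHMT1, again with the match in capitals.
PHGDH, TTGCNNAA on the minus strand (chr1:119711793-119711820): cgggcagggaTTTGGCAAcctcagagcc
MTHFD1L, TGATGNAA (chr6:150866347-150866374): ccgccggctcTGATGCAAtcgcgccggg
SHMT1, CCAAT, read on the minus strand (chr17:18363612-18363636): tgcgccgcagCCAATagcgcgggtg

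The match of PHGDH lies 124 to 131 bases before its start site, and that of MTHFD1L 83 to 90 bases before a start site of one of its transcripts. Such a match is a description of letters, and its absence from a window says only that the letters are not there.

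The serine pathway was examined first. PHGDH, which catalyzes its first step, read 61.3, 63.1 and 67.4 CPM in CTRL cells at 0 h, 139, 135 and 125 at 8 h, 133, 136 and 137 at 24 h, and 184, 179 and 186 at 48 h. The C/EBPδ-inducible libraries of PHGDH read 112, 122 and 122 CPM at 0 h, 197, 184 and 199 at 8 h, 254, 234 and 231 at 24 h, and 257, 265 and 249 at 48 h. Every treated library lay above every untreated library of its own line, and at each time every C/EBPδ-inducible library lay above every CTRL library. In CTRL cells PHGDH rose by a log2 fold change of 1.08 ± 0.063 (SE, n = 3 against 3) at 8 h, 1.09 ± 0.039 at 24 h and 1.51 ± 0.052 at 48 h, that is 2.12-, 2.12- and 2.86-fold, with edgeR FDRs of 4.99e-06, 1.90e-13 and 5.84e-09. The rise in C/EBPδ-inducible cells was 0.70 ± 0.037, 1.02 ± 0.040 and 1.11 ± 0.036 on the log2 scale, with an edgeR FDR of at most 3.57e-12. Ordered by mean, CTRL cells at 0 h had the lowest PHGDH (64.0 CPM) and C/EBPδ-inducible cells at 48 h the highest (257 CPM). The highest pair, C/EBPδ-inducible cells at 48 and 24 h, overlapped in their libraries, and so did C/EBPδ-inducible cells at 8 h with CTRL cells at 48 h, and CTRL cells at 24 and 8 h.

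PSAT1, the aminotransferase of the second step, read 130.4, 130.3 and 127 CPM in CTRL cells at 0 h, 277, 308 and 319.7 at 8 h, 291, 299 and 279.8 at 24 h, and 286, 341 and 345 at 48 h. For PSAT1, the C/EBPδ-inducible libraries read 143, 146 and 146 CPM at 0 h, 285, 278 and 284 at 8 h, 257, 281 and 272 at 24 h, and 295, 303 and 313 at 48 h. The untreated libraries stood apart from the treated ones in both lines, while the treated libraries of the lines overlapped at each time. PSAT1 rose 2.38-fold at 8 h, 2.25-fold at 24 h and 2.50-fold at 48 h in CTRL cells (log2 1.25 ± 0.060, 1.17 ± 0.034 and 1.32 ± 0.064, edgeR FDR of at most 1.10e-06). The rise of PSAT1 in C/EBPδ-inducible cells was 1.94-, 1.87- and 2.08-fold (log2 0.95 ± 0.030, 0.90 ± 0.035 and 1.06 ± 0.031, edgeR FDR of at most 1.91e-15).

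PSPH, the phosphatase of the last step, lay between 40.4 and 47.5 CPM in the untreated CTRL libraries and between 43.0 and 44.3 CPM in the untreated C/EBPδ-inducible libraries. Treated libraries lay between 64.2 and 73.3 CPM in CTRL cells and between 61.8 and 76.4 CPM in C/EBPδ-inducible cells. Treated and untreated libraries did not overlap in either line. PSPH rose 1.62-, 1.45- and 1.56-fold at 8, 24 and 48 h in CTRL cells and 1.45-, 1.58- and 1.66-fold in C/EBPδ-inducible cells (edgeR FDR of at most 0.000419 in all 6 tests). All enzymes of serine synthesis thus rose in each line at each time, and summed per kilobase of transcript they went from 116 ± 2.2 CPM per kb (SD, n = 3) at 0 h to 237 ± 4.2 at 24 h in CTRL cells, and from 151 ± 4.0 to 285 ± 4.2 in C/EBPδ-inducible cells.

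**Figure D1:**
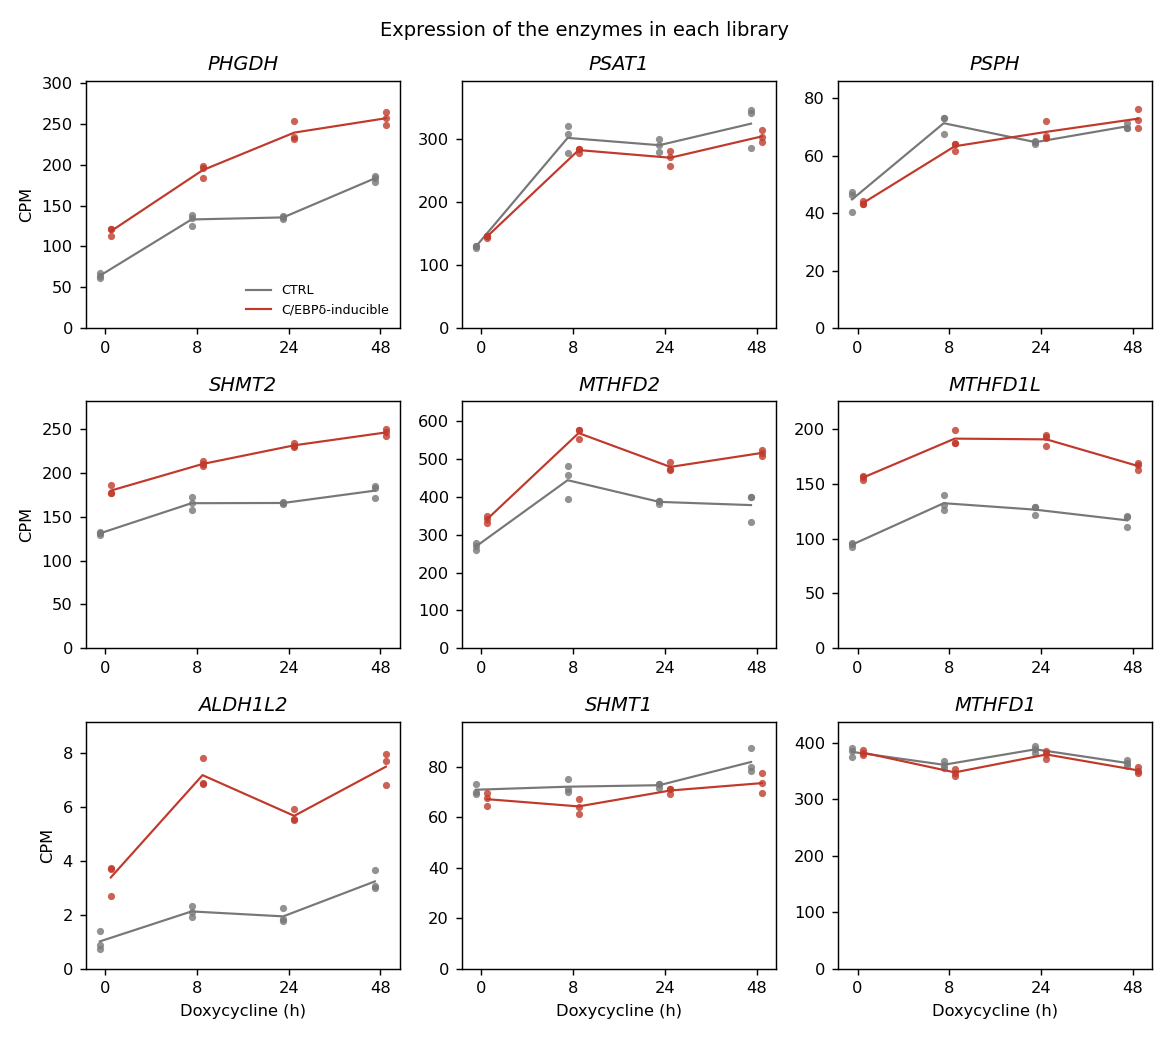
CPM of each enzyme (vertical axis, from 0) in every library (points) at 0, 8, 24 and 48 h of doxycycline (horizontal axis, times evenly spaced), with lines through the group means of 3 libraries for CTRL cells (grey) and C/EBPδ-inducible cells (red). PHGDH, SHMT2, MTHFD2, MTHFD1L and ALDH1L2 lie higher in C/EBPδ-inducible cells at all 4 times, whereas SHMT1 and MTHFD1 stay nearly flat in both lines.

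In the mitochondrial arm, SHMT2, which splits serine there, read 129, 132 and 132 CPM in CTRL cells at 0 h, 173, 165 and 158 at 8 h, 165, 165 and 166 at 24 h, and 185, 172 and 183 at 48 h. SHMT2 in C/EBPδ-inducible cells read 177, 176 and 186 CPM at 0 h, 213, 208 and 209.6 at 8 h, 234, 230.0 and 230.2 at 24 h, and 246, 249.7 and 242 at 48 h. The untreated C/EBPδ-inducible libraries overlapped with the CTRL libraries at 48 h, and all later C/EBPδ-inducible libraries lay above every CTRL library. SHMT2 rose 1.29-, 1.27- and 1.37-fold at 8, 24 and 48 h in CTRL cells and 1.16-, 1.29- and 1.36-fold in C/EBPδ-inducible cells, with an edgeR FDR of at most 0.0034. The rise in CTRL cells at 8 h (log2 0.36 ± 0.053) was lost without any one of the untreated CTRL libraries, without CTRL 8 h replicate 2, and with the replicate number as a block (edgeR FDR of 0.037).

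MTHFD2, the mitochondrial dehydrogenase and cyclohydrolase, read 278, 259 and 269 CPM in CTRL cells at 0 h, 395, 456 and 479.6 at 8 h, 388, 389.6 and 382 at 24 h, and 334, 399 and 399.9 at 48 h. The C/EBPδ-inducible libraries of MTHFD2 read 330.5, 348 and 342 CPM at 0 h, 576, 551 and 576 at 8 h, 474, 491 and 470.1 at 24 h, and 508, 515 and 524 at 48 h. Both lines were highest at 8 h by the group means. MTHFD2 rose 1.68-fold at 8 h in CTRL cells and 1.66-fold in C/EBPδ-inducible cells (log2 0.75 ± 0.068 and 0.73 ± 0.029, edgeR FDRs of 0.000156 and 2.39e-14). At 24 and 48 h the rise was 1.44- and 1.40-fold in CTRL cells and 1.41- and 1.50-fold in C/EBPδ-inducible cells.

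MTHFD1L, which releases formate from the mitochondrial folate pool, read 92.0, 95.4 and 95.7 CPM in CTRL cells at 0 h, 139.7, 126 and 131 at 8 h, 128, 129 and 121 at 24 h, and 110.1, 119 and 120.4 at 48 h. For MTHFD1L, C/EBPδ-inducible libraries read 154, 156 and 157 CPM at 0 h, 187, 187 and 199 at 8 h, 194, 192 and 184 at 24 h, and 167, 163 and 168 at 48 h. Every C/EBPδ-inducible library, untreated ones included, lay above every CTRL library. MTHFD1L rose 1.43-, 1.34- and 1.23-fold at 8, 24 and 48 h in CTRL cells (edgeR FDR of at most 0.000545) and 1.22- and 1.23-fold at 8 and 24 h in C/EBPδ-inducible cells (edgeR FDR of at most 3.26e-07). At 48 h in C/EBPδ-inducible cells the log2 difference of 0.08 ± 0.032 did not pass the threshold (edgeR FDR of 0.0367). With the replicate number as a block, the CTRL rise at 8 h had an edgeR FDR of 0.0112 and was no longer called.

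ALDH1L2, which oxidizes the mitochondrial one-carbon unit to CO2, was by far the lowest of the set, with 13 to 178 counts per library. It read 0.729, 0.898 and 1.41 CPM in CTRL cells at 0 h, 2.12, 2.34 and 1.92 at 8 h, 1.76, 1.83 and 2.24 at 24 h, and 3.64, 3.06 and 3.01 at 48 h. ALDH1L2 in C/EBPδ-inducible cells read 3.73, 3.71 and 2.70 CPM at 0 h, 7.79, 6.88 and 6.84 at 8 h, 5.56, 5.92 and 5.51 at 24 h, and 6.80, 7.70 and 7.95 at 48 h. Untreated C/EBPδ-inducible libraries overlapped with CTRL libraries at 48 h, and all treated C/EBPδ-inducible libraries lay above every CTRL library. ALDH1L2 rose 2.10-, 1.67- and 2.18-fold in C/EBPδ-inducible cells (edgeR FDR of at most 0.000315) and 3.15-fold at 48 h in CTRL cells (log2 1.65 ± 0.24, edgeR FDR of 0.000163). In CTRL cells at 8 and 24 h the log2 differences of 1.07 ± 0.26 and 0.93 ± 0.26 missed the threshold (edgeR FDRs of 0.044 and 0.0255), although the treated and untreated libraries did not overlap.

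The cytosolic enzymes were examined last. SHMT1, the cytosolic counterpart of SHMT2, lay between 69.3 and 87.7 CPM in all CTRL libraries and between 61.4 and 77.6 CPM in all C/EBPδ-inducible libraries. SHMT1 was not called in any of the 13 comparisons as tested, and its largest estimated change over time was a log2 difference of 0.20 (95% interval 0.07 to 0.33) in CTRL cells at 48 h, with an edgeR FDR of 0.0149. That difference was called, at 0.24, without CTRL 48 h replicate 2, and at 0.21 in one model of all 24 libraries (edgeR FDR of 0.00118). The same model called SHMT1 lower in C/EBPδ-inducible cells at 8 h (-0.16, edgeR FDR of 0.00876) and at 48 h (-0.16, edgeR FDR just under the threshold).

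MTHFD1, which joins the dehydrogenase, cyclohydrolase and formate-activating reactions in one cytosolic protein, lay between 356 and 395 CPM in CTRL libraries and between 342 and 388 CPM in C/EBPδ-inducible libraries. In C/EBPδ-inducible cells it read 388, 378 and 383 CPM at 0 h against 354, 347 and 342 at 8 h and 357, 349 and 348 at 48 h, and these libraries did not overlap. MTHFD1 fell by 0.15 ± 0.029 at 8 h and by 0.13 ± 0.028 at 48 h on the log2 scale (edgeR FDRs of 0.000276 and 0.000261), whereas the log2 difference at 24 h was -0.01 ± 0.028. In CTRL cells its log2 differences were -0.06, 0.02 and -0.08 at 8, 24 and 48 h, and none of them passed the threshold. The CTRL libraries at 8 and 48 h nevertheless also lay below the untreated CTRL libraries without overlap. For MTHFD1 the log2 change in C/EBPδ-inducible cells minus that in CTRL cells was -0.06 at 8 h and -0.06 at 48 h. Neither difference between the lines was called (edgeR FDRs of 0.514 and 0.426). Of the annotated exon bases, 11.1% in MTHFD1, 14.1% in MTHFD2 and 8.38% in SHMT2 lie opposite other genes, and since the strand setting of the counting was not stated, such reads may be shared. The genes opposite MTHFD2 and SHMT2 did not exceed a mean of 0.435 CPM over all libraries, and ZBTB25, opposite MTHFD1, had a mean of 25.3 CPM. ALDH1L2 and SHMT1 overlap such genes over 2.91% and 2.81% of their exon bases, respectively, and the genes opposite ALDH1L2, NOPCHAP1 and WASHC4, were themselves more abundant (16.9 and 74.0 CPM) than ALDH1L2, as was SMCR8, opposite SHMT1 (117 CPM), than SHMT1. Among pseudogenes of the set, the highest was MTHFD2P7 with a mean of 2.33 CPM.

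Counted over the set, 6 of 9 enzymes rose in CTRL cells at 8 h, beside 0.905% of all 15253 genes tested that were called higher and 0.793% that were called lower in the same comparison. This background moved with the processing, from 1.7% called in either direction to 0.57% with a replicate block. It was 7.22% in one model of all 24 libraries and 5.02% without CTRL 8 h replicate 1. At 24 h 6 of 9 rose, beside 2.81% of 15196 genes called higher and 3.25% called lower, and at 48 h 7 of 9 rose, beside 15.2% of 15294 genes called higher and 14.7% called lower. In C/EBPδ-inducible cells 7 of 9 rose and MTHFD1 fell at 8 h, beside 14.6% of 15395 genes called higher and 15.8% called lower. At 24 h 7 of 9 rose, beside 7.33% of 15560 genes called higher and 8.14% called lower. At 48 h 6 of 9 rose and MTHFD1 fell, beside 19.1% of 15394 genes called higher and 19.5% called lower. The median log2 change of the 9 enzymes was 0.70, 0.53 and 0.49 at 8, 24 and 48 h in CTRL cells and 0.53, 0.50 and 0.59 in C/EBPδ-inducible cells, where the median of all genes tested stayed between -0.0064 and 0.012. All 9 enzymes passed the filter on low counts in each comparison. The 8, 24 and 48 h comparisons of a line share its untreated libraries and are therefore not independent of each other.

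**Figure D2:**
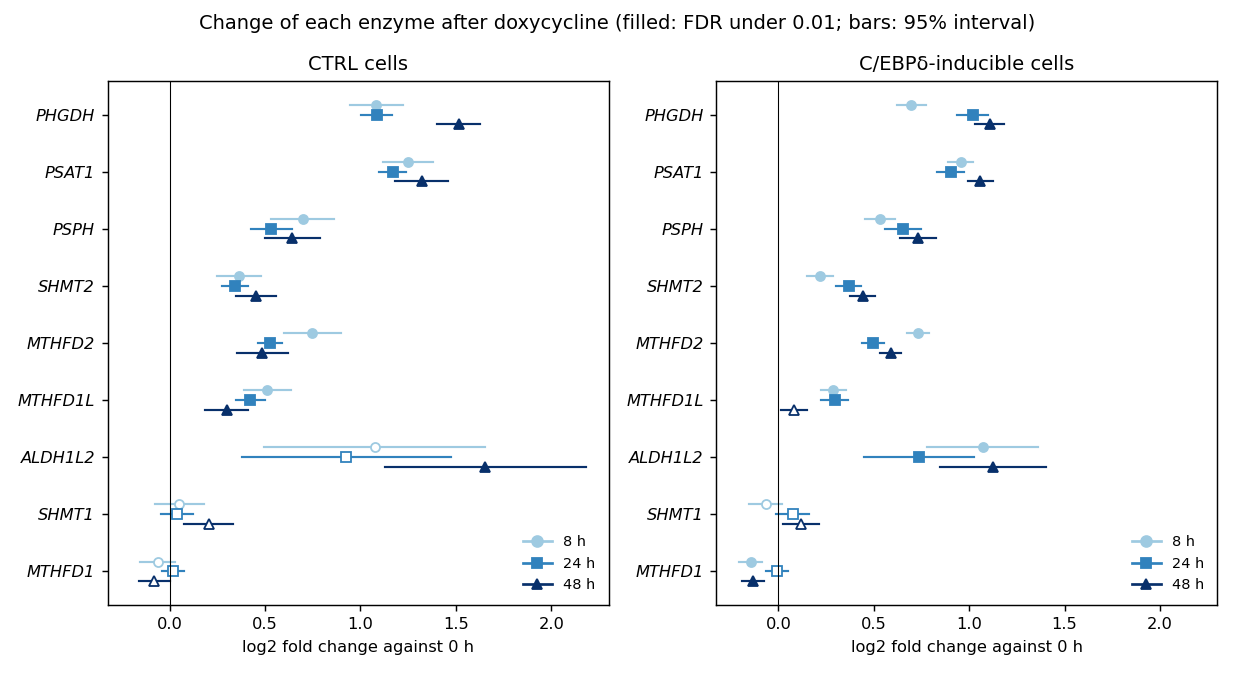
Log2 fold change of each enzyme against 0 h (horizontal axis) in CTRL cells (left) and C/EBPδ-inducible cells (right) at 8 h (circles), 24 h (squares) and 48 h (triangles). Bars are 95% intervals from the model with 3 libraries per group and filled symbols have an FDR under 0.01, and PHGDH and PSAT1 are filled at every time while SHMT1 and MTHFD1 lie near 0.

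The lines were compared next, at each time separately. Before any doxycycline, 6 of 9 enzymes were higher in C/EBPδ-inducible cells, and none was lower, beside 20% of all 15317 genes tested that were called higher and 23.9% called lower. These were ALDH1L2 (log2 1.72 ± 0.24, 3.29-fold), PHGDH (0.88 ± 0.043, 1.84-fold), MTHFD1L (0.71 ± 0.034, 1.64-fold), SHMT2 (0.45 ± 0.034, 1.36-fold), MTHFD2 (0.33 ± 0.031, 1.26-fold) and PSAT1 (0.16 ± 0.033, 1.11-fold). The edgeR FDR was at most 0.000482, that of PSAT1. PSPH, SHMT1 and MTHFD1 had log2 differences of -0.05, -0.09 and -0.01 and overlapping libraries.

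After doxycycline, 5 of 9 enzymes were higher in C/EBPδ-inducible cells and none was lower at 8 h, beside 14.3% of 15561 genes called higher and 17.4% called lower. The counts were the same at 24 h, beside 21.5% of 15700 genes called higher and 25.3% called lower, and at 48 h, beside 17.6% of 15592 genes called higher and 20.7% called lower. They were PHGDH, SHMT2, MTHFD2, MTHFD1L and ALDH1L2 at each time. At 24 h, the main time point of the study, PHGDH was 1.76-fold higher (log2 0.82 ± 0.037, edgeR FDR of 6.46e-16), MTHFD1L 1.50-fold (0.59 ± 0.036), SHMT2 1.39-fold (0.48 ± 0.032), MTHFD2 1.23-fold (0.30 ± 0.028) and ALDH1L2 2.89-fold (1.53 ± 0.15). The same genes differed 1.45-, 1.44-, 1.27-, 1.28- and 3.38-fold at 8 h and 1.40-, 1.42-, 1.37-, 1.36- and 2.30-fold at 48 h. The median log2 difference between the lines was 0.33, 0.34, 0.30 and 0.45 over the 9 enzymes at 0, 8, 24 and 48 h, while the median of all genes tested was at most 0.0098.

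PSAT1 was called higher in untreated C/EBPδ-inducible cells and had log2 differences of -0.10 ± 0.059, -0.11 ± 0.035 and -0.09 ± 0.064 at 8, 24 and 48 h. The value at 24 h lay just outside the threshold (edgeR FDR of 0.0101) and was called lower with a replicate block (edgeR FDR of 0.00937) and without the filter on low counts (-0.13, edgeR FDR of 0.00035). For MTHFD1 the 95% interval of the difference between the lines ran from -0.10 to 0.02 at 24 h, and for PSPH from -0.01 to 0.16. KRT8, KRT18 and KRT19 differed strongly between the lines in the same libraries, by log2 differences of -5.14, -3.83 and -4.35 at 24 h, and the part of such differences between the clones in the values of the enzymes was not tested.

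**Figure D3:**
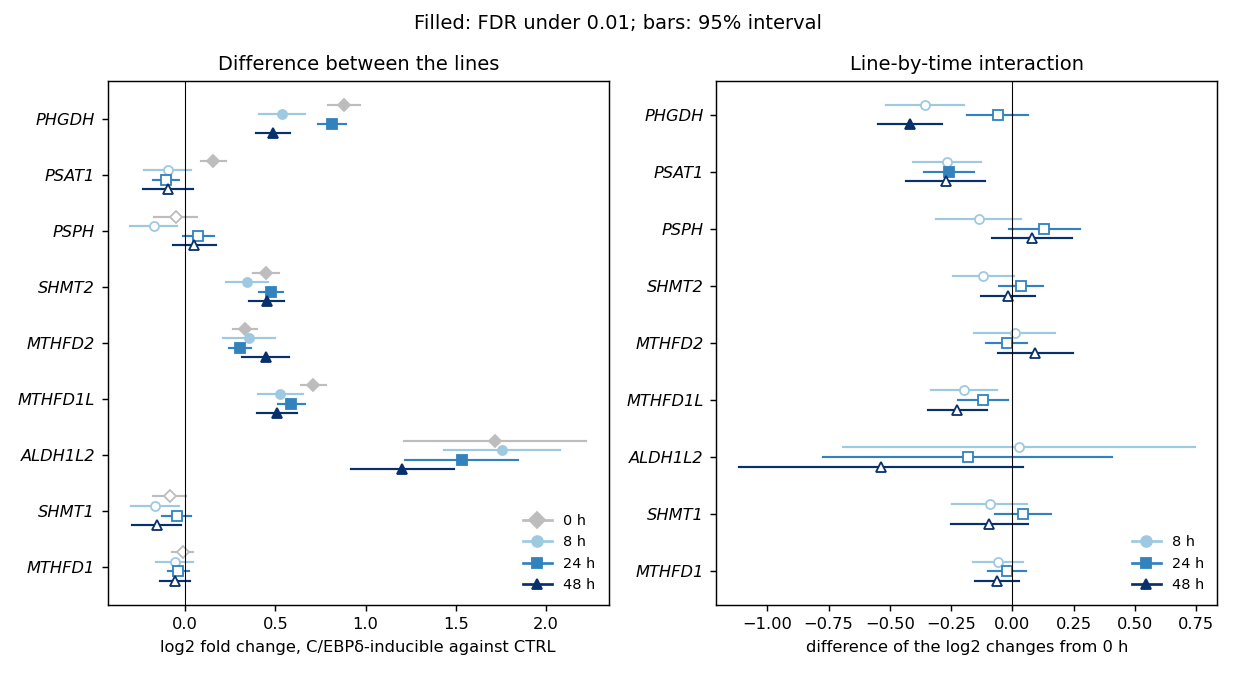
Left, log2 fold change of each enzyme in C/EBPδ-inducible against CTRL cells at 0 h (diamonds), 8 h (circles), 24 h (squares) and 48 h (triangles). Right, the change since 0 h in C/EBPδ-inducible cells minus that in CTRL cells on the log2 scale. Bars are 95% intervals from the model with 3 libraries per group and filled symbols have an FDR under 0.01. PHGDH, SHMT2, MTHFD2, MTHFD1L and ALDH1L2 are right of 0 at all 4 times in the left panel, whereas only PSAT1 at 24 h and PHGDH at 48 h are filled in the right panel.

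Whether the lines responded differently to doxycycline was tested as an interaction of line and time. Of 27 such tests on the enzymes 2 were called, and both were negative. PSAT1 rose less in C/EBPδ-inducible cells at 24 h, with an interaction of -0.26 ± 0.049 on the log2 scale (edgeR FDR of 0.000606), with a rise of 0.90 against 1.17 in CTRL cells. In one model of all 24 libraries this interaction was -0.27 and no longer called (edgeR FDR of 0.0419). On the log2 scale PHGDH rose less at 48 h, with an interaction of -0.42 ± 0.062 (edgeR FDR of 0.00015), with a rise of 1.11 against 1.51. In CPM its rise was larger in C/EBPδ-inducible cells (119 to 257) than in CTRL cells (64.0 to 183). In both cases every treated library of either line lay above its untreated libraries. These were 1 of 9 enzymes at 24 h, beside 2.98% of 16224 genes called lower and 2.86% called higher, and 1 of 9 at 48 h, beside 2.72% of 16306 genes called lower and 2.83% called higher.

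At 8 h no enzyme was called (0 of 9, beside 0.887% of 16228 genes called higher and 0.77% called lower). By the unadjusted edgeR p, 3 of the 9 lay under 0.05, and the share of all genes under that limit was not counted. DESeq2 called 1 of the 9, beside 2.61% of all genes called in either direction. The lowest FDR was that of PHGDH, with an interaction of -0.36 ± 0.075 and an edgeR FDR of 0.0116, and it was called at -0.32 without CTRL 8 h replicate 1 and at -0.40 without CTRL 8 h replicate 3. PSAT1 had interactions of -0.27 ± 0.066 at 8 h and -0.27 ± 0.077 at 48 h (edgeR FDRs of 0.0276 and 0.0283), and MTHFD1L of -0.20 ± 0.064 and -0.23 ± 0.057 (edgeR FDRs of 0.0823 and 0.0152). Without CTRL 8 h replicate 1, PSAT1 was called at 8 h (-0.33), and without CTRL 48 h replicate 1, PSAT1 (-0.35) and MTHFD1L (-0.26) were called at 48 h. These CTRL libraries, replicate 1 at 8 h and at 48 h, were the lowest of their groups for both PSAT1 and MTHFD2. For MTHFD2 the 95% interval ran from -0.11 to 0.06 at 24 h and for SHMT2 from -0.06 to 0.12. For ALDH1L2 the interval was wide, from -0.77 to 0.41 at 24 h, and a difference in response within that range cannot be told from none.

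Levels were then compared between genes, per kilobase of the canonical transcript. All annotated exons together held 17357 bases in MTHFD1 and 2206 in PSAT1, against 3154 and 2206 in the canonical transcript. The order of genes, the ratios and the sums per kilobase therefore depend on the length chosen. The relative change of a ratio between groups does not. In untreated CTRL cells MTHFD1 was the most abundant enzyme by the canonical length, with 122 ± 2.7 CPM per kb (SD, n = 3). It was followed by MTHFD2 (61.0 ± 2.1), SHMT2 (60.7 ± 0.73) and PSAT1 (58.6 ± 0.91). The values of MTHFD2 and SHMT2 were closer than their SDs. PHGDH (34.3 ± 1.7), SHMT1 (28.1 ± 0.84), MTHFD1L (27.3 ± 0.60) and PSPH (22.7 ± 1.9) were lower, and ALDH1L2 had 0.136 ± 0.048 CPM per kb. At 24 h PSAT1 (131 ± 4.4 CPM per kb) was above MTHFD1 (123 ± 2.0) in CTRL cells. In C/EBPδ-inducible cells at 24 h PHGDH (128 ± 6.6), PSAT1 (122 ± 5.4) and MTHFD1 (120 ± 2.2) had means within overlapping ranges of 1 SD.

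The mitochondrial enzymes were set against their cytosolic counterparts in the same library. The ratio of SHMT2 to SHMT1 per kilobase was 2.16 ± 0.052 (SD, n = 3) in CTRL cells at 0 h and 2.68 ± 0.031, 2.67 ± 0.041 and 2.57 ± 0.11 at 8, 24 and 48 h. The corresponding ratios in C/EBPδ-inducible cells were 3.14 ± 0.21, 3.83 ± 0.15, 3.83 ± 0.059 and 3.92 ± 0.18. At every time the lowest C/EBPδ-inducible library was above the highest CTRL library, and in both lines each treated library was above each untreated one.

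MTHFD1L read 0.225 ± 0.0022 times the level of MTHFD1 per kilobase in untreated CTRL cells and 0.371 ± 0.0080 times in untreated C/EBPδ-inducible cells, and at 8 h these ratios were 0.334 ± 0.012 and 0.502 ± 0.026. The ratio of MTHFD2 to MTHFD1 was highest at 8 h in both lines, with 0.880 ± 0.097 in CTRL cells and 1.17 ± 0.035 in C/EBPδ-inducible cells, against 0.502 ± 0.029 and 0.637 ± 0.025 at 0 h. Summed per kilobase, the mitochondrial enzymes went from 149 ± 1.4 CPM per kb at 0 h to 201 ± 1.8 at 24 h in CTRL cells and from 206 ± 3.8 to 272 ± 3.7 in C/EBPδ-inducible cells. The cytosolic pair stayed at 149.9 ± 3.5 and 152 ± 2.0 in CTRL cells and at 148 ± 2.1 and 148 ± 2.7 in C/EBPδ-inducible cells.

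**Figure D4:**
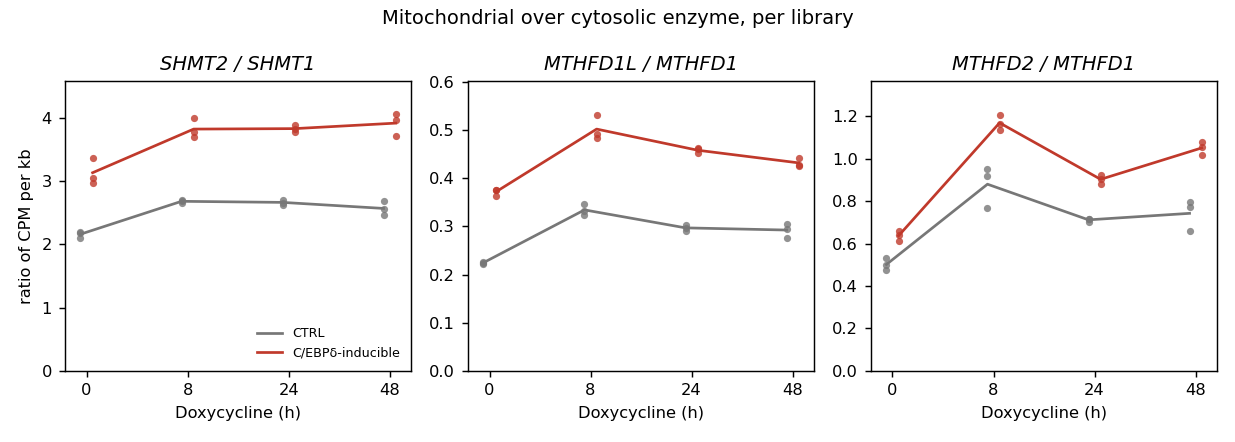
Ratio of a mitochondrial to a cytosolic enzyme, each in CPM per kilobase (vertical axis, from 0), in every library (points) at 0, 8, 24 and 48 h of doxycycline (horizontal axis, times evenly spaced), with lines through the means of 3 libraries. In the SHMT2 to SHMT1 panel the CTRL libraries lie between 2.10 and 2.71 and the C/EBPδ-inducible libraries between 2.98 and 4.07.

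Other genes of folate metabolism, were taken from a list of 18 carriers and enzymes. At 8 h in CTRL cells 0 of the 15 tested were called (0.905% of all genes called higher and 0.793% lower), and at 24 h 1 was higher and 1 lower (2.81% and 3.25% of all genes). Of the 14 tested in C/EBPδ-inducible cells, 6 were higher and 3 lower at 8 h (14.6% and 15.8% of all genes), and 0 of 15 were called at 24 h (7.33% and 8.14%). At 48 h 1 was higher and 4 were lower in CTRL cells (15.2% and 14.7% of all genes). In C/EBPδ-inducible cells 1 was higher and 3 were lower at that time (19.1% and 19.5%). TYMS, the thymidylate synthase that uses the one-carbon unit for DNA synthesis, fell by 0.45 on the log2 scale in CTRL cells at 48 h and by 0.39 in C/EBPδ-inducible cells. SLC19A1, the reduced folate carrier, fell by 0.60 and 0.42 at that time. In untreated cells 3 of 15 were already higher and 1 lower in the C/EBPδ-inducible line (20% and 23.9% of all genes). For TYMS and SLC19A1, untreated CTRL libraries lay at 381 to 403 and 57.1 to 61.8 CPM, against 518 to 542 and 70.9 to 71.5. For MTRR and FPGS they lay at 77.4 to 80.7 and 41.0 to 45.8 CPM, against 90.1 to 95.1 and 31.9 to 34.1. Between the lines at 24 h TYMS (log2 0.38 ± 0.029), SLC19A1 (0.31 ± 0.046) and MTRR (0.23 ± 0.042), the reductase that keeps methionine synthase active, were higher in C/EBPδ-inducible cells, and FPGS, which adds glutamates that hold folate in the cell, was lower (-0.27 ± 0.053), as part of 3 higher and 3 lower of 15 tested, beside 21.5% and 25.3% of all genes.

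Among 18 genes of glycine cleavage and of serine use or transport, 16 were tested. In CTRL cells 3 were higher at 8 h and none lower (0.905% and 0.793% of all genes). At 24 h 4 were higher and 1 lower there (2.81% and 3.25%), and at 48 h 6 were higher and 4 lower (15.2% and 14.7%). In C/EBPδ-inducible cells 4 were higher at 8 h and none lower (14.6% and 15.8% of all genes). At 24 h 4 were higher and 1 lower there (7.33% and 8.14%), and at 48 h 7 were higher and 3 lower (19.1% and 19.5%). GLDC, the decarboxylase of the glycine cleavage system, lay between 12.6 and 15.1 CPM in untreated CTRL libraries and between 8.77 and 10.1 CPM at 24 h, and between 5.80 and 6.32 CPM and between 3.39 and 3.92 CPM in C/EBPδ-inducible libraries. It fell by 0.61 on the log2 scale at 24 h in CTRL cells and by 0.74 in C/EBPδ-inducible cells, opposite to SHMT2. At 24 h GLDC was lower in C/EBPδ-inducible than in CTRL cells (log2 -1.32 ± 0.12, edgeR FDR of 2.74e-10), as were the mitochondrial carrier SFXN3 (-3.83 ± 0.29), SDSL (-1.28 ± 0.14) and the sphingolipid enzyme SPTLC2 (-0.90 ± 0.039), among 4 higher and 7 lower of 16 (21.5% and 25.3% of all genes). SFXN3 was low in both lines, with a mean of 3.64 CPM in CTRL cells and 0.26 CPM in C/EBPδ-inducible cells at that time. In untreated cells 4 of 16 were already higher and 7 lower in the C/EBPδ-inducible line (20% and 23.9% of all genes). Untreated CTRL libraries lay between 3.25 and 3.71 CPM for SFXN3, 5.15 and 6.22 for SDSL, and 98.0 and 103 for SPTLC2. The untreated C/EBPδ-inducible libraries lay between 0.640 and 0.845, 1.71 and 2.80, and 47.1 and 56.8 CPM, respectively.

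Of the 6 genes tested of de novo purine synthesis, a pathway that takes up formyl groups, none was called in CTRL cells at 8 h. Of all genes, 0.905% were called higher and 0.793% lower there. In CTRL cells 1 was higher at 24 h (2.81% of all genes) and 2 were lower at 48 h (14.7%). In C/EBPδ-inducible cells 2 were lower at 8 h (15.8% of all genes) and 2 were higher at 24 h (7.33%). At 48 h 2 were higher and 1 lower (19.1% and 19.5%). Before doxycycline 4 of 6 were already higher in C/EBPδ-inducible than in CTRL cells (20% of all genes), with a median log2 difference of 0.16. Between the lines at 24 h 5 of 6 were higher in C/EBPδ-inducible cells (21.5% of all genes), by small amounts (median of 0.17). The largest were GART (log2 0.25 ± 0.027), PAICS (0.24 ± 0.028), PPAT (0.19 ± 0.040) and ADSL (0.15 ± 0.037). ATIC was the only one of 6 with an interaction at 24 h (0.16 ± 0.041, edgeR FDR of 0.00961), beside 2.86% of all genes called higher.

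ATF4 itself read 110.5, 115 and 117 CPM in CTRL cells at 0 h and 278, 249 and 252 at 8 h. In C/EBPδ-inducible cells it read 153, 161 and 162 CPM at 0 h and 277, 272 and 282 at 8 h. The lines stood apart before treatment, overlapped at 8 h and stood apart again at 24 and 48 h. ATF4 lay between 189 and 194 CPM in CTRL libraries and between 242 and 259 in C/EBPδ-inducible libraries at 24 h. The ranges at 48 h were 204 to 217 and 264 to 277 CPM. ATF4 mRNA rose by log2 1.21, 0.74 and 0.87 at 8, 24 and 48 h in CTRL cells and by 0.79, 0.64 and 0.75 in C/EBPδ-inducible cells, and its interaction was called at 8 h (-0.39 ± 0.066, edgeR FDR of 0.00257) and at neither later time.

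Of 16 genes listed as ATF4 and its known targets outside the pathway, 13 of 14 tested were higher in CTRL cells at 8 h. The counts were 14 of 15 at 24 h and 14 of 15 at 48 h, with ATF5 called lower at 48 h. Of all genes, 0.905%, 2.81% and 15.2% were called higher at these times, and 14.7% lower at 48 h. The counts in C/EBPδ-inducible cells were 13 of 15, 11 of 15 and 13 of 15 called higher, with ATF5 again called lower at 48 h. The shares of all genes called higher there were 14.6%, 7.33% and 19.1%, and 19.5% were called lower at 48 h. The median log2 change of the listed genes was 1.31, 0.82 and 0.96 in CTRL cells and 1.01, 0.64 and 0.91 in C/EBPδ-inducible cells. Before doxycycline 11 of 14 tested were already higher in C/EBPδ-inducible than in CTRL cells and none lower (20% and 23.9% of all genes). Their median log2 difference was 0.65. Between the lines at 24 h 12 of 15 were higher in C/EBPδ-inducible cells and 1 was lower (21.5% and 25.3% of all genes, median of 0.47). The largest were VLDLR (log2 1.85 ± 0.075), ATF3 (1.34 ± 0.12), the cystine carrier SLC7A11 (1.31 ± 0.048) and NUPR1 (1.03 ± 0.32). In the interaction at 24 h 4 of 15 genes were lower and 1 was higher (2.98% and 2.86% of all genes). SLC7A11 (-0.83 ± 0.079), the glutathione-degrading enzyme CHAC1 (-0.77 ± 0.16) and ASNS (-0.42 ± 0.067), which makes asparagine, rose less in C/EBPδ-inducible cells, whereas the pseudokinase TRIB3 (0.57 ± 0.087) rose more.

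**Figure D5:**
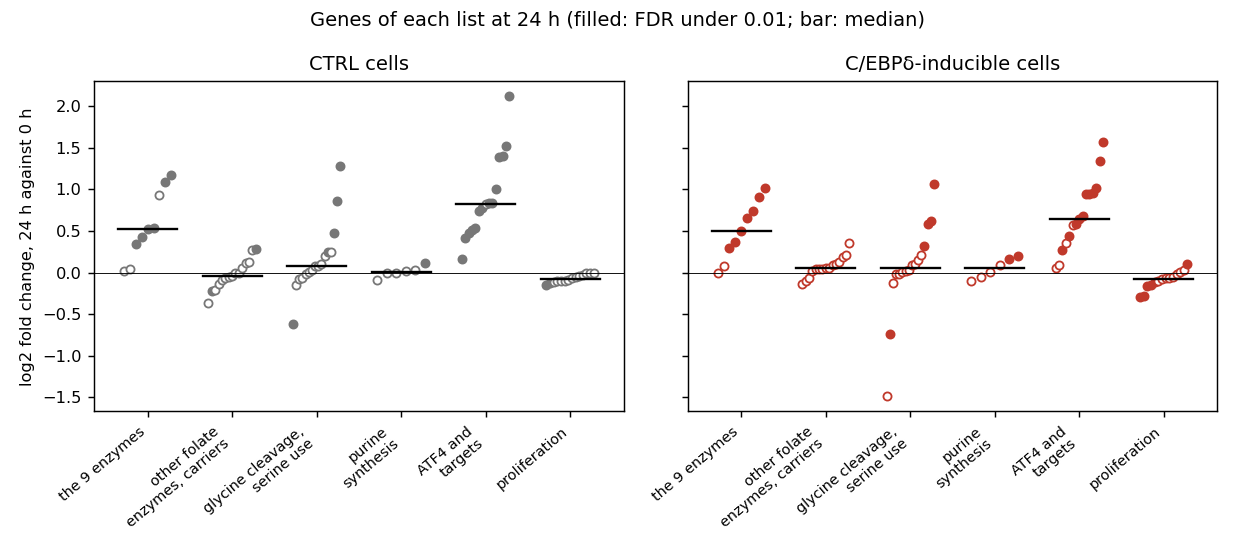
Log2 fold change at 24 h against 0 h (vertical axis) of each tested gene (points, ordered by value within a list) of 6 lists in CTRL cells (left) and C/EBPδ-inducible cells (right). Filled points have an FDR under 0.01 and bars are list medians, which are 0.53 and 0.50 for the 9 enzymes, 0.82 and 0.64 for ATF4 and its targets, and within 0.1 of 0 for the other lists.

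Of 14 proliferation genes, none was called in CTRL cells at 8 h (0.905% of all genes called higher and 0.793% lower). In CTRL cells 2 were lower at 24 h (3.25% of all genes), whereas all 14 were lower at 48 h (median log2 change of -0.50, beside 14.7% of all genes called lower). The C/EBPδ-inducible cells had 9 lower and 2 higher at 8 h, 5 lower and 1 higher at 24 h, and all 14 lower at 48 h (median of -0.43). The shares of all genes called lower there were 15.8% at 8 h, 8.14% at 24 h and 19.5% at 48 h, and 14.6% at 8 h and 7.33% at 24 h were called higher. At 48 h PHGDH, PSAT1, PSPH, SHMT2, MTHFD2 and ALDH1L2 were thus called higher in both lines in libraries in which the proliferation genes were called lower. Between the lines at 24 h, E2F1 (log2 -0.57 ± 0.046), CCNE2 (-0.48 ± 0.068) and RRM2 (-0.35 ± 0.028) were lower and CCNA2 (0.39 ± 0.036) higher in C/EBPδ-inducible cells, among 5 higher and 7 lower of 14 (21.5% and 25.3% of all genes), and RRM2 had a positive interaction at 24 h (0.20 ± 0.037). In untreated cells 5 of 14 were already higher and 7 lower in the C/EBPδ-inducible line (20% and 23.9% of all genes). For E2F1 and CCNE2, untreated CTRL libraries lay at 71.3 to 72.8 and 26.1 to 28.7 CPM, against 53.2 to 56.6 and 23.7 to 25.0. For RRM2 and CCNA2 they lay at 718 to 759 and 130 to 138 CPM, against 502 to 515 and 157 to 165. The part of proliferation in the levels of the enzymes was not tested.

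Finally, the genes whose pattern over the 12 libraries of a line was most like that of each enzyme were listed, by the lower of the Pearson correlations in the lines, over 9154 genes with a mean of at least 10 CPM. These correlations run over libraries that share line and time groups and are descriptions. For PHGDH the nearest gene was SHMT2 (0.983), followed by YARS1 (0.982) and DDIT4 (0.971). For PSAT1 they were ASNS (0.990), GPT2 (0.961) and EPRS1 (0.959), and for PSPH DDIT4 (0.972), TRIB3 (0.960) and GPT2 (0.960). SHMT2 was nearest to PHGDH (0.983), DDIT4 (0.967) and YARS1 (0.965), MTHFD2 to CHAC1 (0.939), SLC7A11 (0.938) and SLC1A4 (0.934), and MTHFD1L to BUD31 (0.923), TARS1 (0.878) and SLC3A2 (0.872). ALDH1L2 was nearest to ANK2 (0.923), PCK2 (0.921) and OCRL (0.915).

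Among the cytosolic enzymes, SHMT1 was nearest to THRA (0.891), MTMR3 (0.878) and RPL3 (0.877), and MTHFD1 to KRI1 (0.918), MSH6 (0.908) and UBTF (0.903). Within the set, MTHFD1 correlated negatively with PHGDH (-0.49 in CTRL cells and -0.46 in C/EBPδ-inducible cells) and with MTHFD2 (-0.55 and -0.78). SHMT1 correlated little with MTHFD2 (0.059 and 0.016), while PSAT1 and MTHFD2 correlated at 0.91 and 0.95.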

How the data were processed

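RNA was measured in 24 libraries of MIA PaCa-2 cells (8 groups of 3 wells). The deposited values are raw counts per Ensembl gene: after ribosomal RNA depletion and read trimming, the authors used Hisat2 with GRCh38 and then HTSeq. The strand setting was not given in the sources used here. All columns could be assigned to a sample. Gene names and coordinates come from GENCODE release 44, which matched 56558 of 60675 identifiers.

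Counts were TMM-scaled, filtered with filterByExpr (minimum count 10, minimum total 15) and tested with edgeR 4.0.16 (R 4.3.3) by its two-sided quasi-likelihood test. Only the groups compared entered each model. P-values were adjusted with the Benjamini-Hochberg method over all genes tested, and genes with an FDR under 0.01 were called, as in the study, whose analysis of variance was run as an alternative. The SE is the log2 fold change divided by the root of F. CPM values use TMM sizes of all 24 libraries, and per-kilobase levels the Ensembl canonical transcript. Depth (12731237 to 22598595 counts per library) covers counting error only. The method was tested on simulated data. Of 2-fold changes, 84.8% were recovered between the lines at 24 h and 72% in the interaction at 24 h. The shares of 4-fold changes were 96.8% and 84.5%, and 8 and 4 unchanged genes were called, respectively. The false calls stood beside 84 and 91 recovered genes between the lines and 72 and 82 in the interaction, a share above 0.01 in both. Between the lines 99 and 94 of 15436 genes were changed, whereas 46.9% of genes were called in the data. The recovery holds for that simulated setting only. Smaller changes were not simulated.

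The 9 enzymes and the gene lists were chosen with earlier results of these data known. CTH is in both the glycine and the ATF4 list. Named outside the enzymes were CEBPD, ATF4, up to 4 genes per list with the largest change among those called between the lines at 24 h and likewise in the interaction at 24 h, and the 3 genes most like each enzyme. The markers, ATF5, ATF4 target values at other times, the untreated values of named genes, the falls of TYMS, SLC19A1 and GLDC over time, and overlapping genes were chosen for the text with their values known.

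Each comparison was repeated with RLE size factors, with DESeq2 1.42.0, unfiltered, with all 24 libraries modelled together, with a replicate block, with analysis of variance on log2(CPM + 1) at 24 h, and without each library. The labels number the replicates in every group. A correlation over 0.1 between the deviations of same-numbered libraries was taken as pairing, and all 3 numbers passed it only in CTRL cells at 24 h against 0 h (0.152 to 0.209), where the block changed no call on an enzyme. Elsewhere the libraries shared only a number. No replicate was a copy of another (chi-square per gene of 1.63 to 14.9). A result that needs a withheld gene is not reported here.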

Additional observations from a re-analysis of the deposited data

Results flagged for a closer look

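The response of PSAT1 at 24 h differed between the lines: its rise was smaller in C/EBPδ-inducible cells by a log2 difference of -0.26 ± 0.049 (SE, 3 libraries per group, edgeR FDR of 0.000606), a difference that came with all 3 treated libraries above all 3 untreated libraries in both lines. It was no longer called in one model of all 24 libraries (-0.27, edgeR FDR of 0.0419).

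PHGDH at 48 h also differed between the lines in its response, with an interaction of -0.42 ± 0.062 on the log2 scale (edgeR FDR of 0.00015). CTRL cells started from 64.0 CPM and C/EBPδ-inducible cells from 119 CPM, and the means at 48 h were 183 and 257 CPM. The rise in CPM was thus not smaller in C/EBPδ-inducible cells. Both results come from 27 interaction tests on the enzymes.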

How the results depend on the processing

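Of 594 repeats of a single gene's value under another normalization, tool, filter or model, 574 kept their direction and their side of the threshold, 15 passed the threshold only there, 4 no longer passed it and 1 changed sign: MTHFD1 in C/EBPδ-inducible cells at 24 h, which was 0.0043 without the filter on low counts. In the interaction at 8 h the count of enzymes called, 0 of 9, became 1 with DESeq2, 2 without the filter and 1 in one model of all 24 libraries. Of all genes, 2.61%, 2.71% and 2.59% were called there in either direction, against 1.66% as tested. In the interaction at 24 h the model of all libraries called 0 enzymes in place of 1 (PSAT1, edgeR FDR of 0.0419). It called 3.54% of all genes, against 5.84% as tested. In the interaction at 48 h the count was 2 without the filter, where 3.39% of all genes were called, against 5.54% as tested. ALDH1L2 in CTRL cells at 8 and 24 h was called without the filter and in the model of all libraries, and PSAT1 between the untreated lines was not called in that model (edgeR FDR of 0.019). That model also called SHMT1 higher in CTRL cells at 48 h than at 0 h, and called SHMT1 at 8 and 48 h and PSPH at 8 h lower in C/EBPδ-inducible than in CTRL cells. PSAT1 between the lines at 24 h was called lower without the filter (-0.13). The cause of these changes was not tested.

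With the replicate number as a block, PSAT1 between the lines at 24 h was called (-0.11, edgeR FDR of 0.00937), SHMT2 and MTHFD1L in CTRL cells at 8 h were lost (edgeR FDRs of 0.037 and 0.0112), and the interaction counts stayed at 0, 1 and 1 at 8, 24 and 48 h. Outside CTRL cells at 24 h the pairing is a shared number only, with correlations of same-numbered libraries between -0.193 and 0.123.

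Leaving out each library in turn kept 835 of 864 values on their side. The count of enzymes called ranged from 0 to 2 in the interaction at 8 h, from 1 to 1 at 24 h and from 1 to 3 at 48 h, and from 5 to 6 between the lines at 8, 24 and 48 h, with PSAT1 called in addition without CTRL 8 h replicate 1 (-0.16), CTRL 24 h replicate 3, C/EBPδ-inducible 24 h replicate 2 or CTRL 48 h replicate 1 (-0.18). In the interaction, the counts of 2 at 8 h and 3 at 48 h came without CTRL replicate 1 of that time. Of all genes, 2.29% and 7.09% were called there in either direction, against 1.66% and 5.54% with all libraries. Signs changed for small estimates that never passed the threshold. MTHFD1 at 24 h ranged from -0.0014 to 0.034 in CTRL cells and from -0.021 to 0.0035 in C/EBPδ-inducible cells. The interaction of MTHFD2 ranged from -0.068 to 0.069 at 8 h and from -0.054 to 0.0043 at 24 h, that of ALDH1L2 from -0.31 to 0.22 and from -0.51 to 0.014, and that of SHMT2 at 48 h from -0.050 to 0.0081. Depth limits ALDH1L2 most, with 13 counts in its lowest library.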
